A study of Mus musculus with 5 samples.

Results

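The 10 genes described here were the epithelial-to-mesenchymal transition (EMT) transcription factors Snai1, Snai2, Zeb1, Zeb2, Twist1 and Twist2, the E protein genes Tcf3, Tcf4 and Tcf12, and Vim, which encodes vimentin. They were taken by symbol, as a fixed list, from the 12934 genes of the count table, and all 10 were among the 12483 genes that passed the filter on low counts and were tested. RNA sequencing was carried out on EpH4 cells, a non-transformed mouse mammary epithelial line, in 3 libraries of cells given a control guide RNA (sgControl) and 2 libraries of cells given a guide RNA against Mef2d (sgMef2d). Every library came from cells that carried Cas9 by lentiviral infection, selected with blasticidin, before the guide RNA was added by a second virus and selected with puromycin. The methods describe the selected cells as stable clones and list 2 guide RNAs against Mef2d. The labels do not say which of them each sgMef2d library carried, nor whether libraries of a group came from separate cultures, so the p-values measure only the spread between these libraries.

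In EMT, epithelial cells loosen their junctions and take on mesenchymal traits. SNAI and ZEB proteins are zinc finger repressors that bind E-box sequences in promoters such as that of the E-cadherin gene, while TWIST proteins are basic helix-loop-helix (bHLH) factors that bind DNA mainly as dimers with E proteins. E proteins also form homodimers that can repress E-cadherin, and Id proteins hold them in dimers that do not bind DNA. Vimentin is the intermediate filament of mesenchymal cells and is commonly read as a product of EMT. The mouse symbols Tcf3, Tcf4 and Tcf12 stand for E proteins and not for the WNT effectors of the TCF/LEF family.

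The libraries held 13601145 to 20498563 counts, and 3 counts corresponded to 0.146 to 0.220 CPM, the counts scaled to library size and given for each 1000000 counts. sgControl replicate 1 stood apart. Its counts differed from those of the other sgControl libraries with a chi-square per degree of freedom of 10.3 and 13.3, against 1.99 between sgControl replicates 2 and 3, 2.03 between the sgMef2d libraries and 10.6 to 12.7 between the groups. Calls and counts that changed without that library are given below. Over all genes tested, 7.95% passed an adjusted p of 0.05 in edgeR, and 29.4% did without that library. Mef2d RNA was at 70.9 ± 6.36 CPM (SD, n = 3) in sgControl and 65.0 ± 1.12 CPM (SD, n = 2) in sgMef2d cells, a log2 fold change of -0.12 (edgeR quasi-likelihood test, adjusted p = 0.400), which became -0.19 (adjusted p = 0.00549) without sgControl replicate 1 and -0.060 (adjusted p = 0.770) without sgControl replicate 2. A count over the whole gene does not show a small edit at the guide site. Of 22 mammary epithelial markers, 16 were measured, with a summed level of 4440 to 4608 CPM in sgControl and 4237 to 4399 CPM in sgMef2d libraries, and 2 were higher and 1 lower (4 and 3 without sgControl replicate 1). The milk protein genes Csn2, Csn3, Wap and Lalba and the markers Elf5 and Krt19 were not among the genes analysed. Fibroblast markers (8 of 14 measured) summed to 1620 to 1694 CPM in sgControl and 1341 to 1366 CPM in sgMef2d libraries, with 3 higher and 2 lower (4 and 4 without sgControl replicate 1). Myoepithelial markers (7 of 11 measured) summed to 493 to 501 CPM and 957 to 1014 CPM, with 4 higher and 1 lower (4 and 2), and most of both sums was Krt14 (439 ± 3.50 and 902 ± 38.6 CPM). Endothelial cells were represented by 1 of 10 markers, Flt1, and leukocytes by 3 of 10, and neither list had a gene past the threshold in edgeR, DESeq2 or limma-voom. Flt1 (0.818 ± 0.483 and 0.282 ± 0.0176 CPM) and Lyz2 (0.357 ± 0.394 and 0.946 ± 0.090 CPM) were the 1 gene in each with an unadjusted p below 0.05, and Lyz2 passed in edgeR without sgControl replicate 3 (log2 fold change 2.64, adjusted p = 0.0248) and with the replicate block (adjusted p = 0.00380). The count table had been filtered on low counts, so a marker at 0 in every library could not be among those measured. The part of these marker shifts in the results below was not tested.

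Of the 10 genes, Vim was higher and Tcf4 was lower in sgMef2d cells, and the other 8 did not pass an adjusted p of 0.05. Over all genes tested, 7.95% passed in either direction, 3.67% higher and 4.28% lower. Snai1 and Twist1 were the other genes with an unadjusted p below 0.05, 4 of the 10 in all, against 2900 of the 12483. The median log2 fold change of the 10 genes was 0.07, beside 0.0031 for all genes. In 5 of the 10, both sgMef2d libraries lay on one side of all sgControl libraries (Vim, Snai1 and Zeb2 above, Twist1 and Tcf4 below), and 41.1% of all tested genes did so. Without sgControl replicate 1, 3 of the 10 passed (Vim and Snai1 higher, Tcf4 lower), while 29.4% of the 12377 genes then tested did. 

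**Figure D1:**
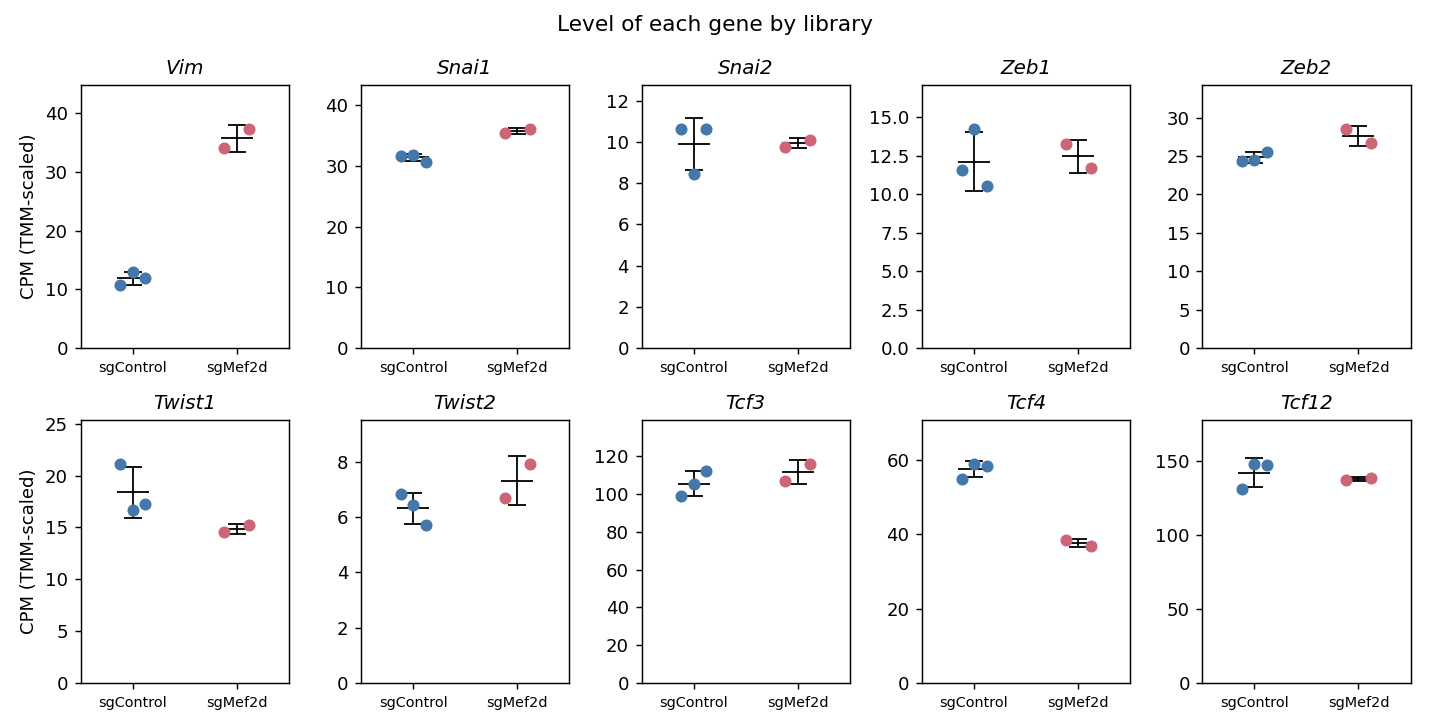
Level of each of the 10 genes in CPM, scaled by TMM, in the 3 sgControl and 2 sgMef2d libraries, with every axis starting at 0. Points are libraries and bars are the mean ± SD. Vim stood at 10.8 to 13.0 CPM in sgControl and at 34.1 and 37.4 CPM in sgMef2d libraries, and Tcf4 at 54.9 to 59.0 and at 38.4 and 36.9 CPM. For the other 8 genes the groups overlapped or lay apart by smaller steps.

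Vim was the gene of the group that differed most. The 3 sgControl libraries, in the order of their replicate numbers, read 10.8, 13.0 and 11.9 CPM (163 to 222 counts), and both sgMef2d libraries were well above them, at 34.1 and 37.4 CPM (555 and 580 counts). The groups did not overlap, and sgControl replicate 1 was the lowest of all libraries. Means rose from 11.9 ± 1.08 to 35.8 ± 2.29 CPM, or 3.0-fold, with a log2 fold change of 1.59 (SE 0.0998, 95% interval 1.37 to 1.81, edgeR quasi-likelihood test, adjusted p = 3.96e-06). Vim ranked 15 of the 12483 genes by p and 91 by log2 fold change. Leaving out sgControl replicate 1 gave 1.52 (adjusted p = 5.24e-26). In bulk RNA, more cells that express a gene and more of its RNA per cell cannot be told apart.

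Vim (ENSMUSG00000026728.9) lies on the plus strand of chromosome 2 in GRCm38, from 13573927 to 13582826, with 6 annotated transcripts in GENCODE. RefSeq (GRCm38.p6) windows before the transcription start were found for 7 of the 10 genes, 12 windows in all, and were read for the E-box CANNTG, for its form CACCTG or CAGGTG (the same site on opposite strands, and a case of CANNTG), which SNAI, ZEB and E proteins bind, and for TATAAA, on both strands. Over the 250 bases before each of 32851 RefSeq starts, 66.2% held CANNTG, 17.2% held CACCTG or CAGGTG and 12.4% held TATAAA. The Vim window held no CANNTG and 1 TATAAA, beginning 32 bases before the RefSeq start. The 30 bases around it are shown because Vim is the gene that rose, with TATAAA in capitals, chr2:13574267-13574296, plus strand:
Vim: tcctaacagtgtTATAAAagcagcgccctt
GENCODE starts the gene upstream of this stretch, and all 30 bases lie in annotated Vim exons. A match to these letters is a description of the sequence and not a site shown to be used.

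Snai1 and Snai2 encode SNAIL and SLUG, zinc finger repressors of E-cadherin. Snai1 was at 31.7, 31.8 and 30.7 CPM in sgControl and 35.4 and 36.1 CPM in sgMef2d libraries. Both sgMef2d values lay above all sgControl values, but the step was small, from 31.4 ± 0.591 to 35.8 ± 0.471 CPM, with a log2 fold change of 0.19 (SE 0.0737, 95% interval 0.03 to 0.35, edgeR, adjusted p = 0.153). Leaving out sgControl replicate 1 kept it at 0.19 with an adjusted p of 0.0490 in edgeR. Snai2 was at 10.6, 8.44 and 10.6 CPM in sgControl and 9.77 and 10.1 CPM in sgMef2d libraries. The sgMef2d values fell inside the sgControl range, and the log2 fold change was -0.0035 (SE 0.135, 95% interval -0.30 to 0.29, adjusted p = 0.991 in edgeR). Leaving out sgControl replicate 1 gave 0.060, and no direction was resolved. Snai1 (ENSMUSG00000042821.7) covers 167538195 to 167542814 of chromosome 2, plus strand, and Snai2 (ENSMUSG00000022676.7) covers 14705852 to 14709385 of chromosome 16, plus strand.

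Among the 7 genes with a window, the Snai1 window was the only one with CACCTG or CAGGTG. The E-box began 126 bases before the start and is in capitals in the 250 bases shown, chr2:167537945-167538194, plus strand, to let the site be seen in its context:
Snai1: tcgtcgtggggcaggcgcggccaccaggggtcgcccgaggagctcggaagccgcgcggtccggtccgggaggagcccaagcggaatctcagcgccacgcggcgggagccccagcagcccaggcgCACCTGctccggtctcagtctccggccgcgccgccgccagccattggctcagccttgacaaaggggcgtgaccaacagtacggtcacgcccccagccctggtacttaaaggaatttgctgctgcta
Snai2, Zeb1 and Tcf4 had no window in the RefSeq table used here.

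Zeb1 and Zeb2 encode zinc finger and homeodomain repressors that, like SNAIL, silence junction genes. For Zeb1 the sgControl libraries read 11.6, 14.3 and 10.6 CPM and the sgMef2d libraries 13.2 and 11.7 CPM, all within one range. Its log2 fold change was 0.05 (SE 0.139, 95% interval -0.26 to 0.35, edgeR, adjusted p = 0.876), and it was negative without sgControl replicate 3 (-0.030) or sgMef2d replicate 1 (-0.051). Zeb2 was at 24.3, 24.5 and 25.6 CPM in sgControl and 28.5 and 26.7 CPM in sgMef2d libraries. The sgMef2d values were the higher ones without overlap, from a mean of 24.8 ± 0.669 to 27.6 ± 1.33 CPM, and the log2 fold change of 0.16 did not pass the test (SE 0.0826, 95% interval -0.02 to 0.34, edgeR, adjusted p = 0.287). Zeb1 (ENSMUSG00000024238.15) runs from 5591860 to 5775467 on the plus strand of chromosome 18 and Zeb2 (ENSMUSG00000026872.18) from 44983632 to 45117395 on the minus strand of chromosome 2. The antisense gene Zeb2os overlaps Zeb2 and read 0.505 ± 0.208 and 0.706 ± 0.333 CPM, far below Zeb2. No Zeb2 window held any of the 3 motifs.

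Twist1 and Twist2 encode bHLH factors that partner E proteins. Twist1 read 21.2, 16.7 and 17.3 CPM in sgControl and 14.5 and 15.2 CPM in sgMef2d libraries. The sgMef2d values were below all sgControl values, and sgControl replicate 1 was the highest by a wide margin. The mean went from 18.4 ± 2.43 to 14.9 ± 0.483 CPM, with a log2 fold change of -0.32 (SE 0.122, 95% interval -0.59 to -0.05) that missed the threshold in edgeR (adjusted p = 0.141). Without sgControl replicate 1 it was -0.19 (edgeR, adjusted p = 0.206), and with the replicate number as a block -0.35 (edgeR, adjusted p = 0.0469). The labels do not say whether the numbers pair the libraries. Twist2 had the lowest CPM of the 10 genes, at 6.83, 6.45 and 5.72 CPM in sgControl and 6.71 and 7.95 CPM in sgMef2d libraries. Its groups overlapped, with a log2 fold change of 0.19 (SE 0.151, 95% interval -0.14 to 0.53, adjusted p = 0.490 in edgeR). Twist1 (ENSMUSG00000035799.6, chromosome 12, 33957671 to 33959829, plus strand) held 1 TATAAA, 126 bases before its start, and no CANNTG. Twist2 (ENSMUSG00000007805.4, chromosome 1, 91801461 to 91848028, plus strand) held none of the 3 motifs.

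**Figure D2:**
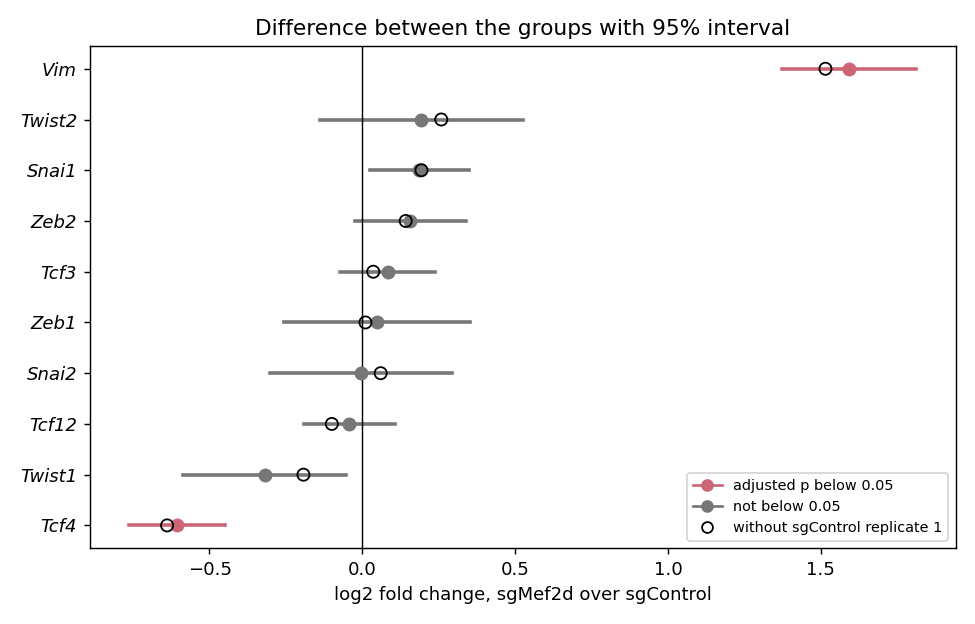
The log2 fold change of each gene, sgMef2d over sgControl, with its 95% interval as a line, and the value without sgControl replicate 1 as an open circle. Red marks an adjusted p below 0.05. The intervals of Vim (1.37 to 1.81) and Tcf4 (-0.76 to -0.45) lay farthest from 0, the open circle of Snai1 fell on its closed point at 0.19, and that of Twist1 moved from -0.32 to -0.19.

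Tcf4 was the one E protein gene that fell. The sgControl libraries read 54.9, 59.0 and 58.3 CPM (795 to 1127 counts) and the sgMef2d libraries 38.4 and 36.9 CPM (652 and 548 counts). The groups were well apart, and sgControl replicate 1 was the lowest of its group rather than the highest. The mean went from 57.4 ± 2.16 to 37.6 ± 1.04 CPM, 0.656 of the control level, with a log2 fold change of -0.61 (SE 0.0714, 95% interval -0.76 to -0.45, edgeR quasi-likelihood test, adjusted p = 0.000519). The value was -0.64 (adjusted p = 3.56e-14) when sgControl replicate 1 was left out. Tcf4 has 62 annotated transcripts, and the counts are for the whole gene, so a change in the use of its start sites could not be seen.

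Tcf3 and Tcf12, the other E protein genes, were expressed at higher levels than Tcf4 and did not pass the test. Tcf3 read 99.0, 105 and 112 CPM in sgControl and 107 and 116 CPM in sgMef2d libraries. Its groups overlapped, and the log2 fold change was 0.08 (SE 0.0703, 95% interval -0.07 to 0.24, edgeR, adjusted p = 0.531). Tcf12 read 131, 148 and 147 CPM in sgControl and 137 and 139 CPM in sgMef2d libraries, inside the sgControl range, with a log2 fold change of -0.04 (SE 0.0673, 95% interval -0.19 to 0.11, edgeR, adjusted p = 0.762). Tcf3 (ENSMUSG00000020167.14) lies at 80409514 to 80433647 of chromosome 10 and Tcf12 (ENSMUSG00000032228.16) at 71842688 to 72111871 of chromosome 9, both on the minus strand. The Tcf3 window held 1 CANNTG, the CACTTG in capitals below, 54 bases before the start. Its 238 bases outside annotated exons are shown for comparison with Snai1, whose E-box has the other central bases, chr10:80433648-80433885, minus strand:
Tcf3: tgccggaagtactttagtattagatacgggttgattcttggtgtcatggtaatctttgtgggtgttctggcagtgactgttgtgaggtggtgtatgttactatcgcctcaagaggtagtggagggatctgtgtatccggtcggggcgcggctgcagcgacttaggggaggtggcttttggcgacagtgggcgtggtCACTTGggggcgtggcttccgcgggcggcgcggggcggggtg
Of the 3 Tcf12 windows, 1 held CAGCTG, 240 bases before its start, 1 held CAAGTG, 149 bases before its start, and 1 held none.

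E proteins share dimer partners, so the RNA levels of their genes were also compared within each library, in CPM per kilobase of exon. Tcf4 made up 5.74%, 5.70% and 5.40% of the summed Tcf3, Tcf4 and Tcf12 level in sgControl and 3.81% and 3.45% in sgMef2d libraries. The shares of the groups did not overlap, with means of 5.62% ± 0.185 (SD, n = 3) and 3.63% ± 0.256 (SD, n = 2), a difference of -1.98 percentage points. The exact two-sided permutation test gave p = 0.2. This form of the test doubles the smaller one-sided p, and 0.2 is the smallest it can give for 3 against 2 libraries. The Tcf3 share was 69.9% ± 0.778 and 72.9% ± 1.08, and the Tcf12 share 24.5% ± 0.674 and 23.4% ± 0.824. Tcf4 (ENSMUSG00000053477.17, chromosome 18, 69343356 to 69689079, plus strand) was the smallest component in both groups. The summed RNA level of the E protein genes was 37.4 ± 2.24 CPM per kilobase in sgControl and 37.9 ± 1.63 in sgMef2d cells. The Tcf12 share turned to a higher one without a length (46.6% ± 0.752 and 48.0% ± 0.710), and the size of the Tcf4 difference also depended on the length, at -3.45 percentage points per kilobase of the longest transcript and -5.72 points in CPM without a length.

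Levels of different genes were compared per kilobase of union exons, the merged exons of all transcripts of a gene. In sgControl cells the order was Tcf3 (26.1 ± 1.64 CPM per kilobase), Snai1 (19.4 ± 0.365), Twist1 (11.3 ± 1.5), Tcf12 (9.15 ± 0.618), Snai2 (4.90 ± 0.626), Vim (2.51 ± 0.227), Tcf4 (2.10 ± 0.0788), Twist2 (1.99 ± 0.178), Zeb2 (1.24 ± 0.0336) and Zeb1 (1.18 ± 0.186). The libraries of Tcf4 and Twist2 overlapped, as did those of Zeb2 and Zeb1, and the other neighbours did not. In sgMef2d cells Vim moved from the sixth to the fifth place, at 7.54 ± 0.483 CPM per kilobase, above Snai2 (4.92 ± 0.116), and Tcf4 moved from the seventh to the ninth, at 1.37 ± 0.0379, overlapping Zeb2 (1.38 ± 0.0665). Vim RNA was thus below that of Snai1 and Tcf3 in both groups. By family, the SNAI sum was 24.3 ± 0.521 and 27.0 ± 0.406 CPM per kilobase, the TWIST sum 13.3 ± 1.62 and 11.4 ± 0.572, and the ZEB sum 2.42 ± 0.169 and 2.60 ± 0.172. Per kilobase of the longest transcript, which counts less exon for genes with many isoforms, Tcf12 (22.6) and Tcf4 (6.69) stood higher in sgControl cells, in the second and the fifth place, and Vim rose from 4.07 to 12.2, from the seventh to the fourth place and above Twist1 (9.14), which it did not pass per kilobase of union exons.

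**Figure D3:**
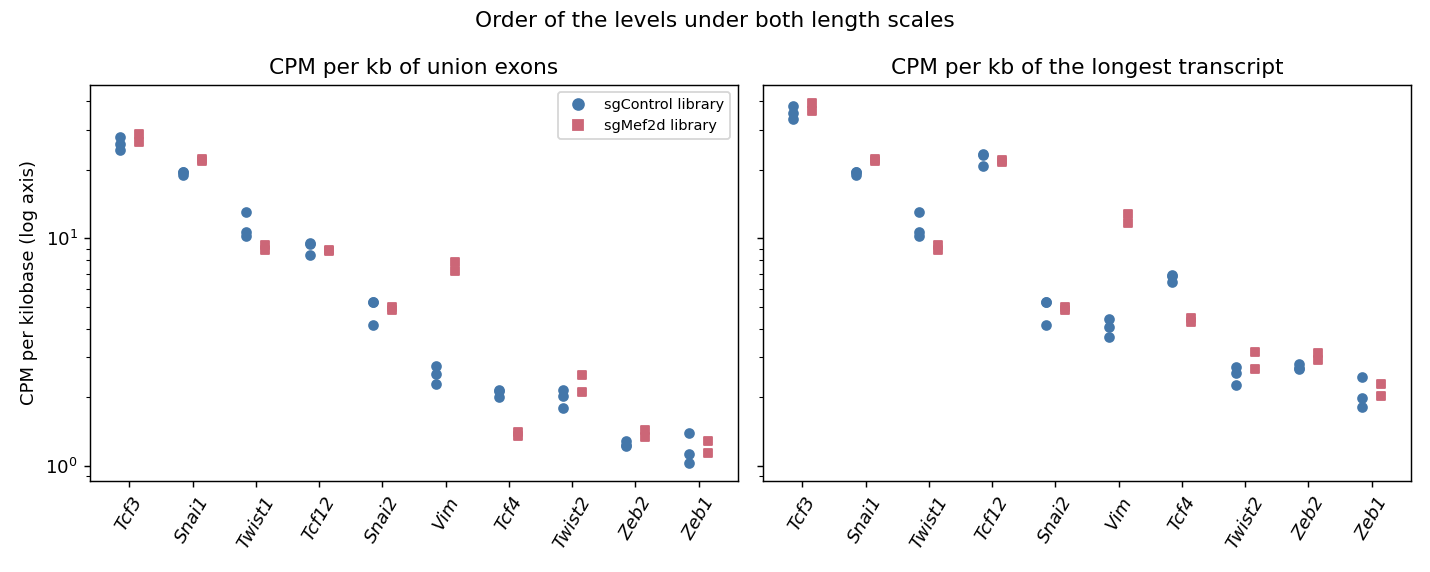
Level of each gene in CPM per kilobase on a log axis, per kilobase of union exons on the left and of the longest transcript on the right, in sgControl (circles) and sgMef2d (squares) libraries. By the means of the sgControl libraries Tcf3 was the highest and Zeb1 the lowest on both scales, and the places of Tcf12, Tcf4 and Vim depended on the scale.

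The genes whose pattern over the 5 libraries was most like that of Vim, by the root mean square difference between centred log2 CPM values, included Adm (0.105) and Prl2c2 (0.110). Adm, which encodes the peptide adrenomedullin, went from 1.51 ± 0.191 to 4.63 ± 0.307 CPM. Prl2c2, a prolactin family gene with near-identical copies among which reads can be split, went from 2.86 ± 0.386 to 9.13 ± 0.513 CPM. Those most like Tcf4 were Rap1gap (0.0244), Rassf2 (0.0395) and Rin2 (0.0450). Rap1gap went from 18.04 ± 0.742 to 11.7 ± 0.751 CPM. Without sgControl replicate 1, 1 of the 3 genes most like Vim was shared (Adm, with S100a8 and Afp) and none of those most like Tcf4 (Mirt1, Gm12905 and Adgrl2).

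Partners of these factors were next examined by lists of genes. None of the 4 Id genes passed the test in edgeR, DESeq2 or limma-voom, with a median log2 fold change of 0.08. Id2 had the smallest p and the only one below 0.05 before adjustment, from 16.8 ± 0.959 to 19.7 ± 0.362 CPM (log2 fold change 0.22, edgeR adjusted p = 0.190). With sgControl replicate 1 left out, 2 of the 4 were higher, in a fit where 29.4% of all genes tested passed in either direction. Of 45 class II bHLH partners of E proteins besides the TWIST genes, 3 were measured and 1, the tendon factor gene Scx, was lower, from 40.6 ± 3.83 to 30.8 ± 1.06 CPM (log2 fold change -0.41, edgeR adjusted p = 0.0199). The Scx call was lost without sgControl replicate 2 or either sgMef2d library. None of the 28 corepressors and coactivators of SNAI and ZEB proteins passed in edgeR, DESeq2 or limma-voom (median log2 fold change 0.02), and Suv39h1, a histone methyltransferase gene, had the smallest p (log2 fold change 0.19, edgeR adjusted p = 0.0820) of 4 genes below 0.05 before adjustment. When sgControl replicate 1 was left out, 8 of the 28 passed, 4 in each direction, and 29.4% of all genes then tested did.

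Of 27 genes whose products stabilize or degrade SNAI, ZEB and TWIST proteins, the RNA of 26 was measured. Gsk3a and Mdm2 were higher and Prkd1 was lower, a share of 11.5% against the 7.95% of all genes, with a median log2 fold change of -0.0015. Gsk3a, whose kinase family marks SNAIL for degradation, went from 113 ± 1.47 to 136 ± 5.81 CPM (log2 fold change 0.27, edgeR adjusted p = 0.0163). Gsk3b, of the same family and list, went the other way, from 104 ± 10.1 to 97.1 ± 3.60 CPM. Its log2 fold change was -0.10 (edgeR adjusted p = 0.500), and -0.18 (edgeR adjusted p = 0.00246) without sgControl replicate 1. Prkd1, a protein kinase D gene, went from 20.5 ± 1.40 to 15.3 ± 0.525 CPM (log2 fold change -0.41, edgeR adjusted p = 0.0287). Mdm2, a ubiquitin ligase gene, went from 81.5 ± 2.95 to 96.4 ± 6.29 CPM (log2 fold change 0.24, edgeR adjusted p = 0.0480). The Mdm2 call was also lost in limma-voom and with no filter on low counts. Left without sgControl replicate 1, the fit called 29.4% of all genes tested. The list held 13 calls without sgControl replicate 1, 1 without sgControl replicate 3, 1 in DESeq2, 2 in limma-voom, 2 with no filter, and none without sgControl replicate 2 or either sgMef2d library.

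Of 21 genes of other transcription factors that promote EMT, 14 were measured, and 4 were higher and 3 lower (50%), with a median log2 fold change of -0.06. This compares with 7.95% of all genes, and 29.4% without sgControl replicate 1. Snai3, the third SNAI gene, went from 1.76 ± 0.248 to 3.50 ± 0.467 CPM, from 21 to 37 and from 47 to 65 counts (log2 fold change 0.99, edgeR adjusted p = 0.0230), a call that was lost in DESeq2 and without sgControl replicate 2, sgMef2d replicate 1 or sgMef2d replicate 2. Fosl1, an AP-1 subunit gene, rose from 62.0 ± 1.84 to 84.7 ± 1.44 CPM (log2 fold change 0.45, edgeR adjusted p = 0.00125). Tbx3, a T-box repressor gene, went from 7.21 ± 0.519 to 12 ± 0.150 CPM. Foxq1, a forkhead factor gene, fell from 21.6 ± 2.91 to 12.2 ± 2.75 CPM (log2 fold change -0.83, edgeR adjusted p = 0.00656). The 7 calls became 10 without sgControl replicate 1 (4 higher, 6 lower), 4 without sgControl replicate 2 (3 higher, 1 lower), 4 in DESeq2 (3 higher, 1 lower), and 2 and 1 without sgMef2d replicates 1 and 2.

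Of 16 genes of factors that hold the epithelial state, 14 were measured and 4 were higher (28.6%). Their log2 fold changes ran from -0.09 to 2.77 over the 14, with a median of 0.30. Across all genes 7.95% passed, and 29.4% without sgControl replicate 1. Grhl3, a grainyhead factor gene of stratified epithelium, rose from 0.475 ± 0.0305 to 3.27 ± 0.622 CPM (log2 fold change 2.77, edgeR adjusted p = 0.000388). Trp63, which encodes p63 of basal epithelium, rose from 29.1 ± 2.67 to 48.6 ± 2.05 CPM (log2 fold change 0.74, edgeR adjusted p = 0.000484). Ehf, an ETS factor gene, went from 3.98 ± 0.799 to 7.10 ± 0.702 CPM, and Klf5, a Krüppel-like factor gene, from 35.6 ± 3.66 to 46.4 ± 0.293 CPM. Vim and these factors were thus higher in the same libraries. The list held 7 calls without sgControl replicate 1 (6 higher, 1 lower), 7 with the replicate block, and 2 without either sgMef2d library.

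**Figure D4:**
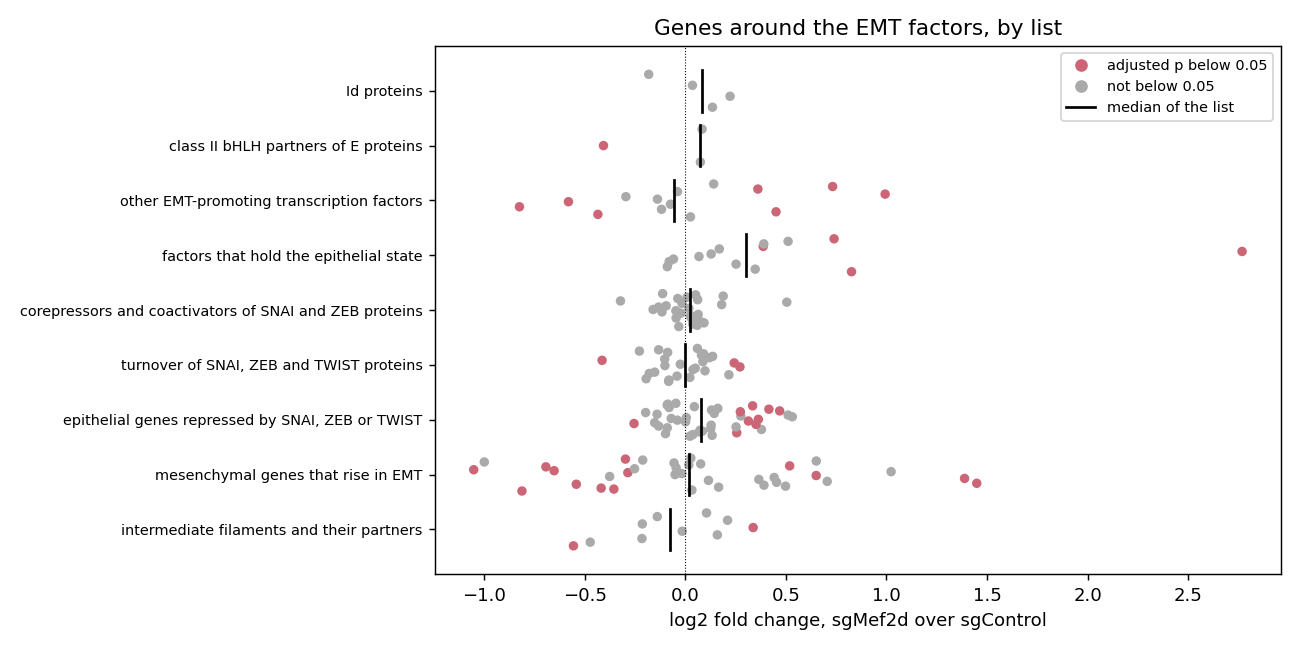
The log2 fold change, sgMef2d over sgControl, of each tested gene in 9 lists around the EMT factors, with red points for an adjusted p below 0.05 and a bar at each list's median. The point at 2.77 is Grhl3. The medians ran from -0.08 for the intermediate filaments to 0.30 for the factors that hold the epithelial state.

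The targets of the factors were then examined. Of 42 epithelial genes that SNAI, ZEB or TWIST proteins are known to repress, 40 were measured, and 8 were higher and 1 lower (22.5%), with a median log2 fold change of 0.08. The share of all genes was 7.95%, and 29.4% without sgControl replicate 1. Among the higher ones, Rab25, a gene of vesicle recycling, went from 37.6 ± 2.24 to 50.3 ± 1.10 CPM (log2 fold change 0.42, edgeR adjusted p = 0.00624), Mal2, of apical transport, from 47.8 ± 1.09 to 61.5 ± 2.27 CPM, and Jup, which encodes plakoglobin, from 136 ± 12.6 to 173 ± 10.7 CPM. Cldn4, a tight junction claudin gene, went from 160.3 ± 11.4 to 192 ± 4.61 CPM. The lower one was Krt18, a simple epithelial keratin gene, from 705 ± 20.3 to 591 ± 15.6 CPM (log2 fold change -0.26, edgeR adjusted p = 0.0207). Cdh1, which encodes E-cadherin, was at 253 ± 18.3 and 277 ± 9.36 CPM (log2 fold change 0.13, edgeR adjusted p = 0.272). The 9 calls became 21 without sgControl replicate 1 (13 higher, 8 lower), 3 without sgControl replicate 2 and none without either sgMef2d library.

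Mesenchymal genes that rise in EMT were measured for 35 of 43 genes, and 4 were higher and 9 lower (37.1%), with a median log2 fold change of 0.02. All genes had a share of 7.95%, and of 29.4% without sgControl replicate 1. Ddr2, a collagen receptor gene, rose from 13.0 ± 1.93 to 33.8 ± 2.29 CPM (log2 fold change 1.39, edgeR adjusted p = 3.29e-05), and Itga5, the fibronectin receptor subunit gene, from 84.0 ± 5.97 to 132 ± 9.19 CPM (log2 fold change 0.65, edgeR adjusted p = 0.000427). Postn, which encodes the matrix protein periostin, fell from 778 ± 5.11 to 481 ± 5.85 CPM (log2 fold change -0.69, edgeR adjusted p = 3.02e-05). Col1a2, a type I collagen gene, fell from 425 ± 12.8 to 291 ± 6.06 CPM (log2 fold change -0.54, edgeR adjusted p = 0.000232). Of the 13 called genes, 4 thus shared the direction of Vim, the others among the 4 being Col3a1, a type III collagen gene (1.85 ± 0.251 and 5.03 ± 0.454 CPM), and S100a4, a calcium-binding protein gene (169.9 ± 30.4 and 244 ± 5.31 CPM). Cdh2, which encodes N-cadherin, was at 2.26 ± 0.341 and 3.15 ± 0.211 CPM (log2 fold change 0.50, edgeR adjusted p = 0.209). Fn1, which encodes fibronectin, was at 8268 ± 2092 and 6369 ± 120 CPM (log2 fold change -0.38, edgeR adjusted p = 0.199), at -0.57 (adjusted p = 2.60e-28) without sgControl replicate 1, at -0.22 (adjusted p = 0.419) without sgControl replicate 3 and at -0.19 with the replicate block. The 13 calls became 21 without sgControl replicate 1 and 8 and 7 without sgMef2d replicates 1 and 2. Without sgControl replicate 1, 8 were higher and 13 lower. The fibroblast markers Postn, Col1a2, Col3a1 and S100a4 are genes of this list too, so the fibroblast sum given above is no separate measurement.

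Vim belongs to the intermediate filament family, so the other filament genes and their partners were set beside it. Of 20 genes, 10 were measured, 1 was higher and 1 lower (20.0%), and the median log2 fold change was -0.08. Beside this stand 7.95% of all genes, and 29.4% without sgControl replicate 1. Lmnb2, a nuclear lamin gene, went from 49.8 ± 1.28 to 62.9 ± 1.68 CPM (log2 fold change 0.34, edgeR adjusted p = 0.00928). Dst, which encodes a linker of filaments to hemidesmosomes, went from 610 ± 109 to 415 ± 7.04 CPM (log2 fold change -0.56, edgeR adjusted p = 0.0159), and sgControl replicate 1 was the low library of its group at 484 CPM. Des and Gfap, the other type III filament genes besides Prph, were not among the genes analysed, and neither was Prph. The 2 calls became 7 without sgControl replicate 1, 1 without sgControl replicate 2 and none without either sgMef2d library. In the myoepithelial list, the keratin gene Krt14 rose from 439 ± 3.50 to 902 ± 38.6 CPM (log2 fold change 1.04, edgeR adjusted p = 1.68e-06), and Krt5 had 3, 0 and 1 counts in sgControl and 260 and 211 counts in sgMef2d libraries. The smooth muscle actin gene Acta2, a marker of both myoepithelial and mesenchymal cells, fell from 18.6 ± 1.53 to 10.6 ± 1.41 CPM (log2 fold change -0.81, edgeR adjusted p = 0.00237).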

How the data were processed

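Poly(A) RNA of 5 EpH4 libraries was sequenced (3 sgControl, 2 sgMef2d, grouped by the treatment label). The authors deposited raw counts per gene, made with STAR2 against GRCm38 and, per the submitters' notes, Subread. The Subread version and the strand setting of the counting are not given in the sources used here, so reads of antisense neighbours (Zeb2os, Gm29100 at Twist2) could not be separated with certainty. All 12934 Ensembl identifiers matched a GENCODE M21 symbol, although the methods name another GENCODE version, so gene models may differ from those counted. The lowest highest-library count of a listed gene was 11, so the table had been filtered on low counts.

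Counts were scaled by TMM, filtered by filterByExpr and tested with the edgeR 4.0.16 quasi-likelihood test in R 4.3.3 (Benjamini-Hochberg over 12483 genes, threshold 0.05). The 95% intervals of log2 fold changes come from this fit and include the spread between libraries. Alternatives used DESeq2 1.42.0, limma 3.58.1 (voom), other scalings and filters, a replicate block and each library left out. Tested on counts simulated for the 12483 genes, sgMef2d against sgControl, of which 12339 passed the filter, the fit called 70 of 100 genes with a log2 change of 0.6, 97 of 100 with 1.6 and 19 of 12283 unchanged genes. In the simulation a gene varied alike in every library, so none stood apart as sgControl replicate 1 did, and these counts do not cover that. Shares were compared by an exact permutation test in scipy 1.17.1, and promoters were from RefSeq GRCm38.p6. The CPM floor of 3 counts covers counting error only.

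The 10 genes and all lists were chosen with earlier results of these data known. Named were the 10 genes, Mef2d, Cdh1, Cdh2 and Fn1, up to 4 genes with the smallest p past the threshold in each list (or the 1 with the smallest p where none passed), and the 3 genes most like Vim and the 3 most like Tcf4. Of these, 2 genes are not reported here. Prph, Des, Gfap, Gsk3b and the unmeasured epithelial markers were named after the table was seen.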

Additional observations from a re-analysis of the deposited data

How the results depend on the processing

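Vim and Tcf4 kept their direction and their call under all 13 alternatives, with log2 fold changes of 1.52 to 1.66 and -0.64 to -0.58 and edgeR, DESeq2 or limma adjusted p of at most 0.000285 and 0.0203. The 10 genes had 78 to 2687 counts in each library, and the 95% intervals of the 8 that did not pass reach from -0.59 to 0.53. The SE was 0.0673 and 0.0703 for Tcf12 and Tcf3, the genes with the most counts, and 0.135, 0.139 and 0.151 for Snai2, Zeb1 and Twist2, those with the fewest. Leaving out each library in turn gave 234 to 3639 genes past the threshold (992 with all) and 12 to 93 of the list genes (43 with all). The highest counts came without sgControl replicate 1, and the lowest without an sgMef2d library, where the lone sample is assumed to vary like the other group. Snai1 ranged from 0.17 to 0.20 over these fits and passed without sgControl replicate 1 (0.19, edgeR adjusted p = 0.0490), with adjusted p of 0.0490 to 0.589 over all alternatives. Snai2 changed sign with upper quartile factors (0.00099) and in DESeq2 (0.00019), and ran from -0.098 to 0.060 with a library left out. Zeb1 ran from -0.051 to 0.17, Twist2 from 0.069 to 0.31, Tcf3 from 0.019 to 0.14 and Tcf12 from -0.10 to -0.011, none of them past the threshold. The cause was not tested.

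Whether the replicate numbers pair the libraries could not be told. The deviations of the 2 same-numbered pairs from their group means correlated at 0.0113 and -0.00092. Those of the 2 sgMef2d libraries mirror each other and were small (chi-square per degree of freedom 2.03), so the correlations cannot decide it. With the number as a block, 1253 genes passed, Twist1 passed at -0.35 (edgeR adjusted p = 0.0469, range 0.0469 to 0.498 over all alternatives), and Snai2 (0.048) and Zeb1 (-0.029) changed sign. The Tcf4 share of the summed E protein gene RNA differed by -5.72 percentage points without a length and by -3.45 per kilobase of the longest transcript. Among the other genes named, Gsk3b not counted, 10 lost their call without an sgControl library and 5 passed only under an alternative. Of the 40 genes named besides the 10 that passed, 16 passed under every alternative, 24 lost the call without an sgMef2d library and 5 in a fit of all libraries, and none reversed.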
